A study of Rattus norvegicus with 9 samples.

Results

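Potassium channel genes that set arterial tone were followed in the superior mesenteric artery (SMA) of rats, the vessel that supplies most of the small intestine. The 8 genes were Kcnj8, Abcc9, Kcnma1, Kcnmb1, Kcna5, Kcnq5, Kcnj2 and Kcnk3, taken by symbol from a table of 37203 gene symbols. The list was drawn up with earlier results of these data known. All 8 passed the filter on low counts, among 15482 genes tested. Myh11, the smooth muscle myosin heavy chain, was read beside them as the measure of smooth muscle content.

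The SMAs came from 8-week-old Sprague-Dawley (SD) rats, and no genetic change is named for any group. The 9 libraries were divided evenly among untreated normal rats, an early stage (1 h of ischemia) and a late stage (4 h of ischemia), with 3 in each. Ischemia was a hemorrhage model in anesthetized rats, with bleeding through a femoral artery and time counted once the model was established. Both ischemia groups therefore underwent anesthesia and catheterization, and a sham-operated group was not among the samples analysed here.

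Opening of potassium channels lets potassium leave the smooth muscle cell, the membrane becomes more negative, voltage-gated calcium channels close and the artery relaxes. Different families open on different cues. ATP-sensitive channels respond to the energy state of the cell, large-conductance channels to calcium and voltage, voltage-gated channels to depolarization, inward rectifiers to external potassium, and leak channels stay open near rest. Sensitivity of small arteries to these cues is a main control of resistance in the gut circulation.

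Promoter windows from RefSeq (assembly GRCr8) were read for the members, each spanning 250 bases before to 50 bases after the start of the gene, and 7 of the 8 genes had one. The windows of Kcna5, Kcnmb1 and Abcc9 are shown because the levels of these 3 genes followed Myh11 most closely, by their correlation over the libraries. They lie at chr4:161043760-161044059 on the minus strand, chr10:19061849-19062148 on the plus strand and chr4:177386299-177386598 on the minus strand, and capitals mark a match to a searched motif.
Kcna5: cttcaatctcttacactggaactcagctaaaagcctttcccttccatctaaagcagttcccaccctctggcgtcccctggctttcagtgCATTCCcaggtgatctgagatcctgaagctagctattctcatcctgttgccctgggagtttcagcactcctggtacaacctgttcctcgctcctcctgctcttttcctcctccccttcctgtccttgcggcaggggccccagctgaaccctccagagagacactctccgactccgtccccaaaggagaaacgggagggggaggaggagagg
Kcnmb1: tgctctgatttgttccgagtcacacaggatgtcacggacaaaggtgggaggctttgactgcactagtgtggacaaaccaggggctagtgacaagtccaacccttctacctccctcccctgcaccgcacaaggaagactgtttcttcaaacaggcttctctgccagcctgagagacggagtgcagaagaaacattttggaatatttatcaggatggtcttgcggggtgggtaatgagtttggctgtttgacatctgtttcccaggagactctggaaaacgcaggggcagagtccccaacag
Abcc9: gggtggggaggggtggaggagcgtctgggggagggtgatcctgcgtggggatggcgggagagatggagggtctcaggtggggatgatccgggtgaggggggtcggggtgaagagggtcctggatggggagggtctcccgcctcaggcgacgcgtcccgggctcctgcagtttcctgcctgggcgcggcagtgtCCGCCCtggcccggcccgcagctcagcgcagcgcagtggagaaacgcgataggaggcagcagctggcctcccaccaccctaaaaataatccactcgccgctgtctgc
Both strands were searched for the CArG box bound by serum response factor, TGACGTCA (a cAMP response element), CACGTG (an E-box), GGGCGG (a GC box) and CATTCC (the core bound by TEAD factors). TGACGTCA and CACGTG both hold ACGT, neighbouring copies of GGGCGG can overlap, and each motif was counted on its own. Kcna5 held 1 CATTCC, which begins at position -161 relative to the start, and CATTCC was present in 14.2% of 33469 promoter windows. GGGCGG, present in 33.1% of all windows, was found in Abcc9, Kcnj8, Kcnj2, Kcnq5 and Kcnma1, with 5 copies in Kcnma1. Kcnmb1 held none of the 5 motifs, and the CArG box, present in 1.64% of windows, was in none of the 7. The 2 windows of Kcna5 and Kcnmb1 each held 6 CpG dinucleotides, while the other 5 held 19 to 38. GC content was 56.3% in Kcna5, 51.7% in Kcnmb1 and 67.0% to 78.3% in the others, beside a median of 51.7% over all windows.

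Total counts ran from 13114273 to 15504240 per library. Levels are given as CPM, counts scaled by library size with TMM factors, so that 1 CPM stood for 12.1 to 17.9 counts. Myh11 was at 4693, 19247 and 17714 CPM in normal replicates 1 to 3, at 8723, 17090 and 4826 CPM at 1 h, and at 23515, 18919 and 9082 CPM at 4 h. Libraries in each group were therefore both rich and poor in smooth muscle RNA, and the groups overlapped. All 16 smooth muscle markers were tested and 0 were called in any comparison, and their summed level ranged from 15003 to 62941 CPM in normal rats, 16962 to 58340 CPM at 1 h and 30806 to 85343 CPM at 4 h. In whole tissue, fewer cells of a type and less RNA per cell cannot be told apart.

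Markers of other tissue sources varied between libraries. The mean log2 CPM of 22 peripheral and sympathetic nerve markers, called the nerve score, was 7.82 and 7.95 in replicates 1 and 3 at 1 h and 7.83 in replicate 3 at 4 h. In the other 6 libraries it ran from 0.56 to 5.44. The summed level of the list ranged from 114 to 2762 CPM in normal rats, 1967 to 10030 CPM at 1 h and 270 to 9736 CPM at 4 h. Dbh, the noradrenaline-forming enzyme, was at 0 counts in normal replicate 2 and at 1854 to 2041 CPM in the 3 libraries with high scores. These 3 libraries, 2 of which are in the 1 h group, stood apart from the rest in the nerve score. Their mean log2 CPM of 6 brown adipocyte markers was also the highest, at 4.92, 3.34 and 4.32, against 1.80 to 2.80 elsewhere. The summed brown level did not follow, being lowest in replicate 3 at 1 h (104 CPM). White and shared adipocyte markers summed to 477 to 2761 CPM, highest in normal replicate 1. The part of fat in the channel levels was not tested. For Kcnq5, Kcnj2, Kcnk3 and further channels named as highest in the 3 libraries with high nerve scores, results are given with and without these libraries. This holds where the gene was still tested. Leaving them out keeps only replicate 2 at 1 h, so each 1 h value of that fit rests on 1 library.

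No member changed past the threshold at either stage of ischemia. With edgeR's quasi-likelihood test, where a call needed a Benjamini-Hochberg adjusted p below 0.05 and a fold change above 1.5, 0 of 8 members were called at 1 h (0.0581% of all genes), 0 at 4 h (0.0904%) and 0 between 4 h and 1 h (0%). The test over the 3 groups together also called 0 of 8 (0.0388%). DESeq2 called 0 members in each of these comparisons, beside 4.53% of all genes at 1 h, 3.94% at 4 h, 0% between the stages and 4.32% over the 3 groups. At an unadjusted p under 0.05 edgeR counted 1 member at 1 h, beside 16.7% of all genes, 0 at 4 h, beside 12.4%, and 0 between the stages, beside 2.58%. The median log2 fold change of the members was 0.40 at 1 h, 0.09 at 4 h and -0.26 between 4 h and 1 h, where all genes had medians of -0.01, 0.03 and -0.04. Without replicate 2 at 1 h the member median was -0.14 at 1 h and 0.29 between 4 h and 1 h. Without replicate 1 at 4 h it was -0.07 at 4 h, so its sign could turn on 1 library in each comparison. Groups of 3 did not overlap for 1 member at 1 h (26.3% of all genes), for 1 at 4 h (18.7%) and for 0 between the stages (6.24%). These shares were no higher among the members than among all genes.

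**Figure D1:**
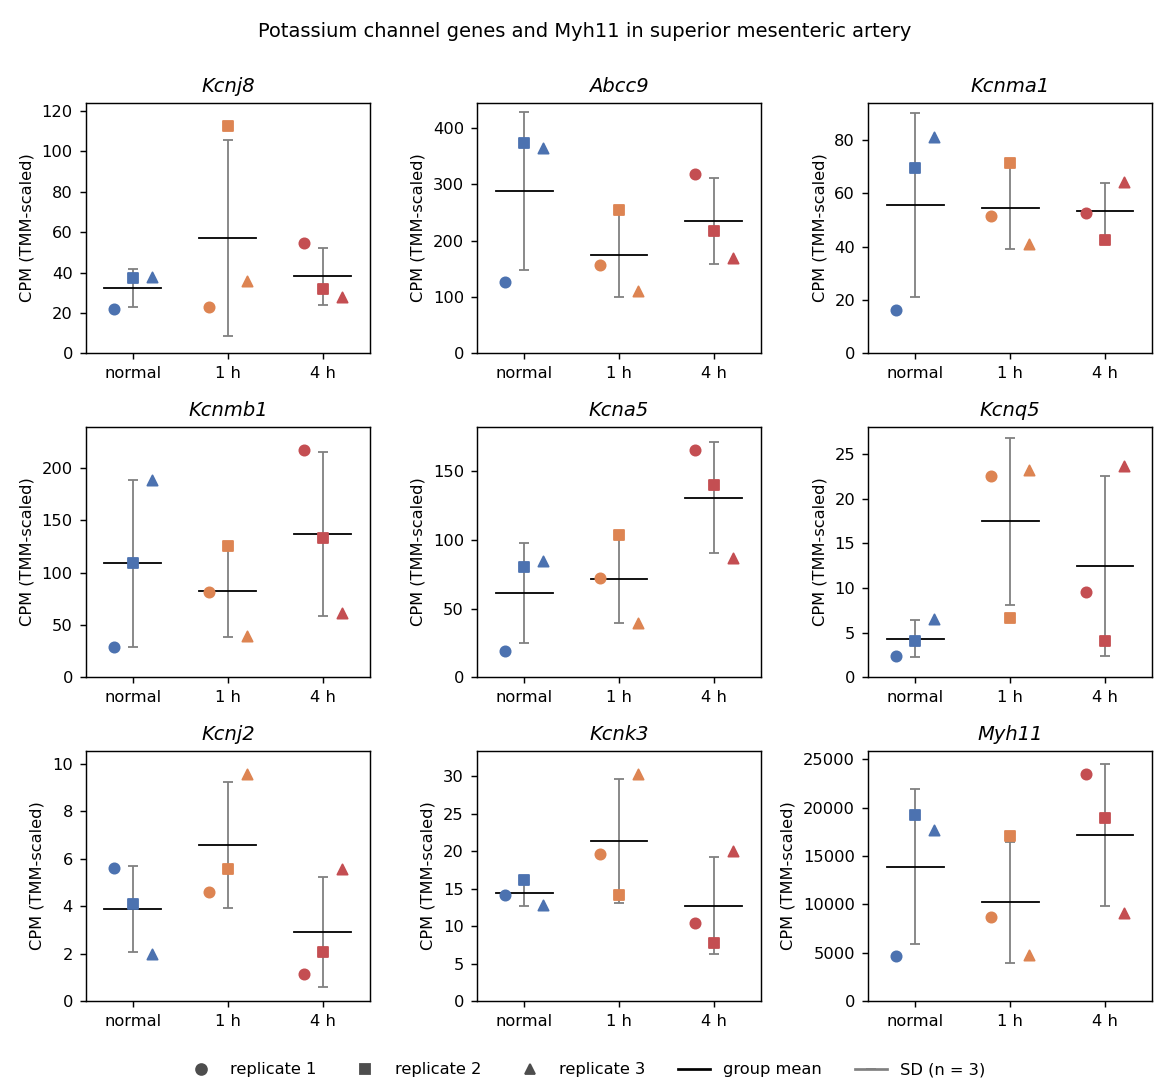
Levels of the 8 channel genes and Myh11 in each library, in TMM-scaled CPM on linear axes from 0, by group (normal, 1 h, 4 h); symbols are replicates, the black line is the group mean and the grey bar is the SD of 3 libraries. Kcna5 sits above all 3 normal libraries at 4 h, Kcnq5 sits above all 3 normal libraries at 1 h, and normal replicate 1 is lowest in its group for Myh11, Abcc9, Kcnmb1, Kcnma1 and Kcna5.

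The ATP-sensitive channel of vascular smooth muscle joins the pore Kir6.1, from Kcnj8, with the sulfonylurea receptor SUR2, from Abcc9. These genes are neighbours on chromosome 4 in RefSeq. Kcnj8 was at 21.7, 37.5 and 37.8 CPM in normal replicates 1 to 3, at 22.7, 112.8 and 36.0 CPM at 1 h and at 54.4, 31.9 and 28.1 CPM at 4 h. Replicate 2 at 1 h was the highest of all 9, and the remaining values overlapped across groups. Fitted against normal, Kcnj8 differed on the log2 scale by 0.82 (SE 0.57, adjusted p = 0.442) at 1 h and 0.24 (SE 0.57, adjusted p = 0.891) at 4 h. Without replicate 2 at 1 h the early value was -0.14, without replicate 1 at 4 h the late value was -0.14, and the difference between 4 h and 1 h went from -0.58 (SE 0.57) to 0.38 without replicate 2 at 1 h.

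Abcc9 had the opposite sign in the early stage. It was at 125.8, 372.8 and 364.7 CPM in normal rats, at 156.5, 255.2 and 110.2 CPM at 1 h and at 319.1, 216.5 and 169.1 CPM at 4 h. Normal replicate 1 was as low as the lower ischemic libraries, so the groups overlapped. The log2 fold change of Abcc9 was -0.73 (SE 0.48, adjusted p = 0.419) at 1 h and -0.29 (SE 0.48, adjusted p = 0.826) at 4 h. Without normal replicate 1 the 1 h value was -1.08 (SE 0.40, adjusted p = 0.282). Abcc9 kept a negative value at both stages in each of the 9 fits that left out 1 library, from -1.11 to -0.51 at 1 h and from -0.65 to -0.08 at 4 h. Across the 9 libraries the pore and receptor genes of this channel had a Pearson r of 0.49 between their log2 CPM values, given as a description.

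The large-conductance calcium-activated channel consists of a pore from Kcnma1 and, in smooth muscle, the beta1 subunit from Kcnmb1, which raises calcium sensitivity. Kcnma1 was at 16.3, 69.7 and 81.1 CPM in normal rats, at 51.5, 71.5 and 41.2 CPM at 1 h and at 52.8, 42.7 and 64.2 CPM at 4 h. All 6 ischemic values lay within the normal range, and normal replicate 1 was the lowest library. In the fit the log2 fold change of Kcnma1 was -0.03 (SE 0.51, 95% interval -1.20 to 1.15) at 1 h and -0.06 (SE 0.51, 95% interval -1.24 to 1.11) at 4 h. These intervals span more than a doubling or halving, so the data did not resolve a change of that size, and leaving out 1 library gave -0.46 (normal replicate 1) to 0.35 (normal replicate 3) at 1 h and -0.50 to 0.31, with the same libraries, at 4 h.

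Kcnmb1 was at 29.1, 109.4 and 189.0 CPM in normal rats, at 81.8, 125.4 and 39.0 CPM at 1 h and at 217.8, 132.8 and 61.3 CPM at 4 h. Every group spanned a wide range, and the order of the libraries resembled that of Myh11. The log2 fold change of Kcnmb1 was -0.41 (SE 0.71, adjusted p = 0.774) at 1 h, 0.33 (SE 0.71, adjusted p = 0.876) at 4 h and 0.74 (SE 0.72, adjusted p = 0.856) between 4 h and 1 h. The early value was 0.24 without normal replicate 3. In the late stage, leaving out normal replicate 1 gave -0.12 and leaving out replicate 1 at 4 h gave -0.21.

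Among voltage-gated channels, Kcna5 encodes Kv1.5, a delayed rectifier of smooth muscle whose closure favours constriction. Kcna5 was at 19.4, 80.1 and 84.6 CPM in normal rats, at 72.04, 103.6 and 39.7 CPM at 1 h and at 165.9, 140.1 and 86.8 CPM at 4 h. All 3 libraries at 4 h were above all 3 normal libraries, although the lowest at 4 h exceeded the highest normal value by little, and the 1 h values overlapped with both. Its log2 fold change was 0.23 (SE 0.56, adjusted p = 0.845) at 1 h, 1.09 (SE 0.57, 95% interval -0.20 to 2.39, adjusted p = 0.473) at 4 h and 0.87 (SE 0.56, adjusted p = 0.856) between 4 h and 1 h. The 4 h value for Kcna5 stayed between 0.67 and 1.40 when single libraries were left out, while leaving out normal replicate 1 turned the 1 h value to -0.20 and leaving out replicate 2 at 1 h turned it to -0.14. Of all genes tested, 7.93% had all 4 h libraries above all normal ones.

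Kcnq5 encodes Kv7.5, a subunit of the Kv7 channels that carry a slow outward current in arterial muscle and, in nerve, the M-current. Kcnq5 was at 2.41, 4.09 and 6.50 CPM in normal rats, at 22.5, 6.68 and 23.2 CPM at 1 h and at 9.59, 4.06 and 23.6 CPM at 4 h. The 3 libraries at 1 h were above all normal ones (12.8% of all genes were higher in this way), but replicate 2 exceeded the highest normal value by little. The log2 fold change of Kcnq5 was 2.01 (SE 0.73, 95% interval 0.34 to 3.68) at 1 h, with an unadjusted p of 0.0238 and an adjusted p of 0.270, and 1.52 (SE 0.72, adjusted p = 0.437) at 4 h. It was the 1 member with an unadjusted p under 0.05, and that held in 5 of 9 fits that left out 1 library.

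The 3 libraries with the highest Kcnq5 were the 3 with the highest nerve score. In a fit that included the nerve score, Kcnq5 had a log2 difference from normal of 0.99 (SE 0.77, adjusted p = 0.733) at 1 h and 1.12 (SE 0.60, adjusted p = 0.395) at 4 h. Without those 3 libraries it was 0.62 at 1 h, where 1 library was left, and 0.66 at 4 h. Without replicate 3 at 4 h alone the late value was 0.66. How much of the Kcnq5 level came from nerve was not tested.

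Kcnj2 encodes Kir2.1, the strong inward rectifier through which external potassium dilates small arteries. It was among the sparse members, at 27 to 100 counts in normal rats, and its level was 5.60, 4.09 and 1.99 CPM in normal rats, 4.62, 5.55 and 9.58 CPM at 1 h and 1.16, 2.07 and 5.55 CPM at 4 h. The 3 groups overlapped. For Kcnj2 the log2 fold change was 0.75 (SE 0.63, adjusted p = 0.518) at 1 h, -0.41 (SE 0.63, adjusted p = 0.816) at 4 h and -1.16 (SE 0.63, adjusted p = 0.856) between 4 h and 1 h. Without replicate 3 at 4 h the last value was -2.02 (SE 0.59, adjusted p = 0.148). With the nerve score as a further term Kcnj2 was at -0.02 (SE 0.59) at 1 h. Without the 3 libraries high in nerve score Kcnj2 was at 0.54 at 1 h, where 1 library was left, and -1.23 at 4 h. The part of nerve in its level was not tested.

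Kcnk3 encodes TASK-1, an acid-sensitive leak channel of the resting membrane. Its normal libraries agreed closely, at 14.2, 16.2 and 12.8 CPM, against 19.7, 14.1 and 30.3 CPM at 1 h and 10.4, 7.79 and 20.01 CPM at 4 h. The 3 highest libraries for Kcnk3 were again those with the highest nerve score. The log2 fold change of Kcnk3 was 0.57 (SE 0.40, adjusted p = 0.440) at 1 h, -0.17 (SE 0.40, adjusted p = 0.885) at 4 h and -0.74 (SE 0.40, adjusted p = 0.856) between 4 h and 1 h. Without the 3 libraries high in nerve score it was -0.01 at 1 h, where 1 library was left, and -0.64 at 4 h. The part of nerve in the level of Kcnk3 was not tested. Without replicate 2 at 4 h the late value was 0.08, and without replicate 3 at 4 h the difference between 4 h and 1 h was -1.23 (SE 0.35, adjusted p = 0.146).

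**Figure D2:**
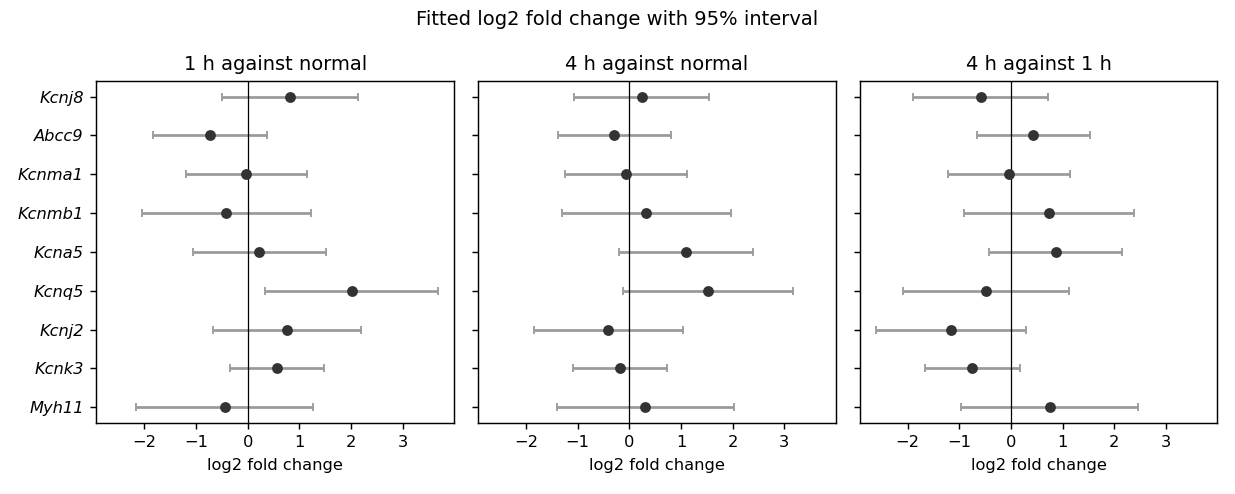
Fitted log2 fold changes of the 8 channel genes and Myh11 (horizontal axis) in 3 comparisons, with 95% intervals from edgeR's quasi-likelihood fit over 9 libraries. Kcnq5 at 1 h, at 2.01, is the 1 member whose interval lies to one side of 0, and Kcna5 at 4 h, at 1.09, has an interval from -0.20 to 2.39.

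To set the channels against smooth muscle content, counts of each member were divided by the Myh11 counts of the same library. Kcna5 had 4.14, 4.16 and 4.78 counts per 1000 Myh11 counts in normal replicates 1 to 3. It had 8.26, 6.06 and 8.22 at 1 h and 7.06, 7.41 and 9.55 at 4 h. All 6 ischemic libraries exceeded all 3 normal ones, and normal replicate 1, which had the lowest CPM of Kcna5, was level with the other normal libraries in the ratio. The log2 ratio of Kcna5 to Myh11 was higher by 0.77 at 1 h and by 0.87 at 4 h, with an exact two-sided permutation p of 0.1 for each, the smallest p that 3 against 3 allows. Over all genes the median of this difference was 0.40 at 1 h and -0.43 at 4 h. At 4 h against 1 h the ratio differed by 0.09 (exact permutation p = 0.7).

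Genes with ratios wholly above the normal range made up 2.13% of all genes at 1 h and 1.01% at 4 h, and Kcna5 was 1 of the 8 members at each time. Both comparisons share the normal libraries. Over all genes the median correlation (Pearson's r) of the level with Myh11 was -0.10, against 0.880 for Kcna5. A gene that follows Myh11 spreads less in this ratio, so shares over all genes do not compare like with like. With the mean of the smooth muscle markers other than Myh11 as the divisor, the difference for Kcna5 was 0.61 at 1 h and 0.83 at 4 h, each with an exact permutation p of 0.1. When the smooth muscle score, the mean log2 CPM of the 16 markers, entered the edgeR fit as a further term, Kcna5 had a log2 difference from normal of 0.60 (SE 0.16, adjusted p = 0.130) at 1 h and 0.86 (SE 0.16, adjusted p = 0.0715) at 4 h. The SE fell from 0.57 to 0.16 in that fit, and neither value passed the threshold. With both the nerve and smooth muscle scores the values were 0.47 (SE 0.22, adjusted p = 0.653) and 0.80 (SE 0.18, adjusted p = 0.147).

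Abcc9 was lower relative to Myh11 at 4 h. Per 1000 Myh11 counts, normal rats had 26.8, 19.4 and 20.6 counts, rats after 1 h 17.9, 14.9 and 22.8, and rats after 4 h 13.6, 11.4 and 18.6. All 4 h libraries were below all normal ones, and the 1 h libraries overlapped with both. The log2 ratio of Abcc9 differed by -0.27 at 1 h (exact permutation p = 0.4) and by -0.63 at 4 h (exact permutation p = 0.1). Ratios wholly below the normal range were found for 4.69% of all genes at 4 h, where the median over all genes was lower as well. In the fit that included the smooth muscle score, Abcc9 had a log2 difference from normal of -0.48 (SE 0.16, adjusted p = 0.166) at 1 h and -0.53 (SE 0.16, adjusted p = 0.173) at 4 h.

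The other 6 members overlapped between normal and ischemic libraries when taken relative to Myh11. For Kcnmb1, normal rats had 6.20, 5.68 and 10.7 counts per 1000 Myh11 counts, rats after 1 h 9.38, 7.34 and 8.08, and rats after 4 h 9.26, 7.02 and 6.75. Its wide range in CPM thus shrank to less than a doubling over the 9 libraries. The log2 ratio of Kcnmb1 differed by 0.19 at 1 h and 0.07 at 4 h, with exact permutation p values of 0.6 and 0.8. For Kcnma1 the differences were 0.62 at 1 h and -0.23 at 4 h, and for Kcnj8 they were 0.91 and -0.23, with exact permutation p values of 0.2 at 1 h and 0.7 at 4 h for both genes. Kcnq5, Kcnj2 and Kcnk3, whose levels did not follow Myh11, had differences of 2.30, 1.19 and 0.89 at 1 h and 0.83, -1.02 and -0.73 at 4 h, with exact permutation p values from 0.2 to 0.6. In all, 1 of 8 members at 1 h, 2 at 4 h and 0 between the stages had ratios that did not overlap, beside 2.91%, 5.70% and 2.58% of all genes. Kcna5 and Abcc9 followed Myh11 more closely than most genes, which narrows their ratios, so these counts are not read as an excess.

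**Figure D3:**
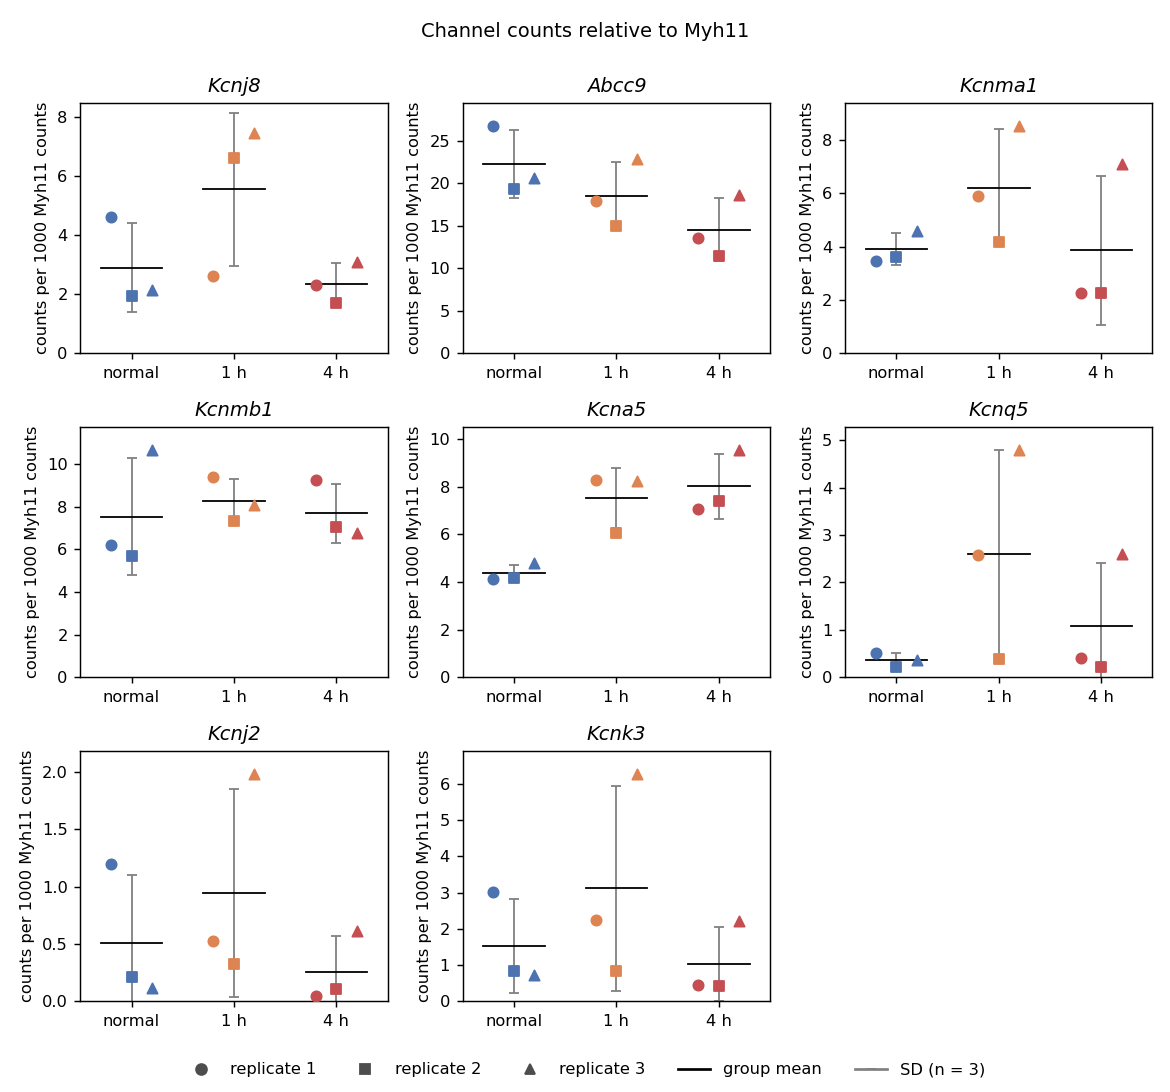
Counts of each channel gene per 1000 Myh11 counts of the same library, on linear axes from 0, by group, with replicates as symbols, the group mean in black and the SD of 3 libraries in grey (bars that would pass below 0 are cut there). Kcna5 lies at 4.14 to 4.78 in normal rats and at 6.06 to 9.55 in all 6 ischemic libraries, and Abcc9 at 4 h lies below all 3 normal values.

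Levels of 5 members had a positive correlation with Myh11. Pearson's r of log2 CPM with Myh11 across the 9 libraries was 0.954 for Kcnmb1 (Spearman's rho 0.867), 0.922 for Abcc9 (rho 0.867), 0.880 for Kcna5 (rho 0.783) and 0.667 for Kcnma1 (rho 0.533). An r at least as high was found for 0.943% of all genes in the case of Kcnmb1, for 2.07% with Abcc9, for 3.46% with Kcna5 and for 14.1% with Kcnma1. Kcnj8 had an r of 0.549 and a rho of 0.65. Kcnj2 and Kcnk3 ran against Myh11, with r of -0.775 (rho -0.85) and -0.689 (rho -0.633), and for Kcnq5 r was -0.271 and rho was -0.167. The nerve score itself had an r of -0.754 with Myh11. Its r was 0.708 with Kcnj2, 0.728 with Kcnk3, 0.681 with Kcnq5, -0.762 with Abcc9, -0.619 with Kcnmb1 and -0.462 with Kcna5, and which of nerve and smooth muscle content these levels followed was not tested.

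These values are a description and carry no test, because Myh11 fell into sets, with 4 libraries between 4693 and 9082 CPM and 5 between 17090 and 23515 CPM, and sets of that size are too small for an r within each. Without normal replicate 1 and 1 h replicate 3, the libraries farthest from the median of Myh11, r was 0.865 for Kcnmb1, 0.836 for Abcc9, 0.660 for Kcna5 and 0.039 for Kcnma1. In the same 7 libraries r was 0.551 for Kcnj8, -0.684 for Kcnj2, -0.763 for Kcnk3 and -0.835 for Kcnq5. For Kcnma1, r was 0.435 without normal replicate 1 alone and 0.704 without 1 h replicate 3 alone. Leaving out normal replicate 1 thus lowered it, and leaving out 1 h replicate 3 alone did not.

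**Figure D4:**
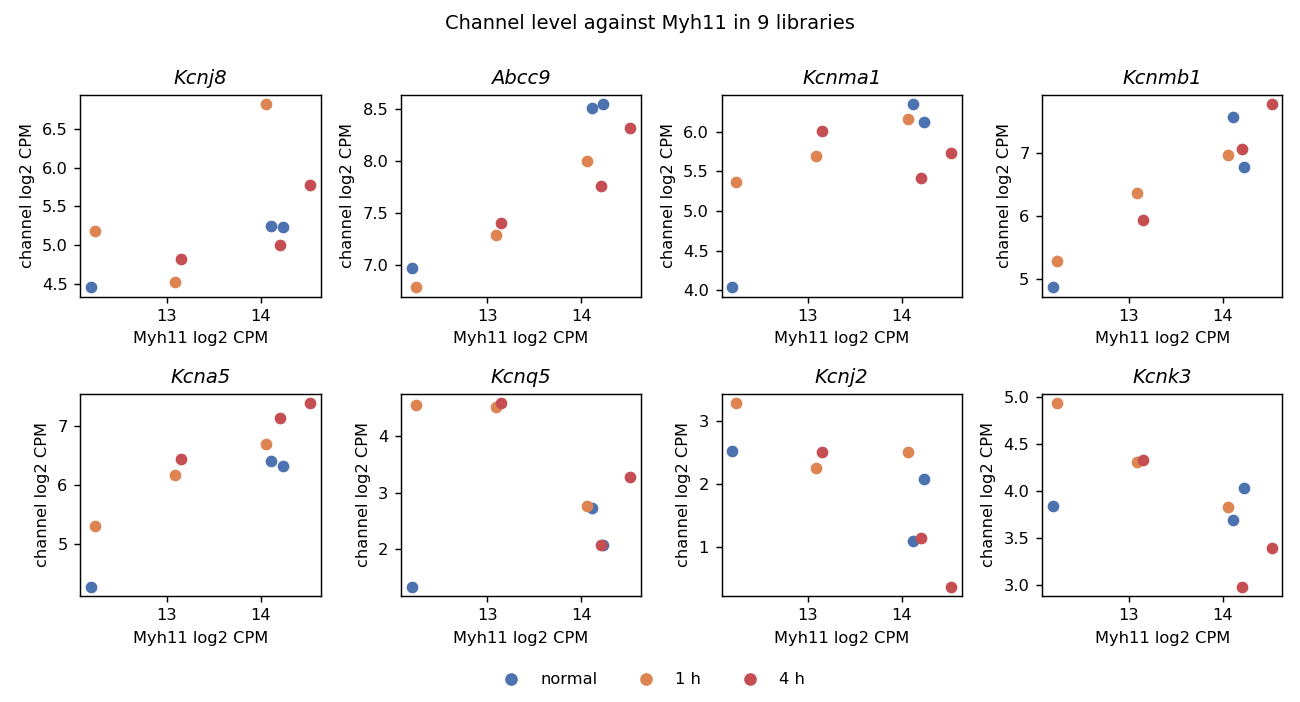
Log2 CPM of each channel gene (vertical) against log2 CPM of Myh11 (horizontal) in 9 libraries, coloured by group. Kcnmb1, Abcc9 and Kcna5 are higher where Myh11 is higher (r of 0.954, 0.922 and 0.880), Kcnj2 and Kcnk3 are lower there (r of -0.775 and -0.689), and 4 libraries lie apart at low Myh11.

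Some genes had nearly the same profile over the 9 libraries as a member, by Pearson's r of log2 CPM, given as a description. The closest to Kcnmb1 were Mfge8 (0.989) and Ldb3 (0.989), to Abcc9 Syne1 (0.992) and Stk40 (0.986), and to Kcna5 Fam46b (0.991) and Enah (0.988). Kcnma1 was closest to Ryr2 (0.942), the ryanodine receptor calcium release channel, and Atp2b4 (0.926), a plasma membrane calcium pump. The closest to Kcnj8 were Arhgef10l (0.976) and Atg16l1 (0.968), to Kcnj2 Hdx (0.972) and Mroh5 (0.968), to Kcnk3 Pkp1 (0.970) and Prpf4 (0.950), and to Kcnq5 Lrp11 (0.987) and Pkm (0.987). Within the members the highest values of r were 0.884 between Kcnmb1 and Kcna5, 0.879 between Abcc9 and Kcnmb1 and 0.816 between Kcnj2 and Kcnk3. With 15482 genes and 9 libraries that share nerve and muscle content, such values describe these libraries only.

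Other potassium channel genes were read as context: 86 further symbols of pore, beta, modifier and sulfonylurea receptor genes were in the table and 56 were tested. EdgeR called 0 of them in each comparison. Among these, 9 were higher and 3 lower by an unadjusted p below 0.05 at 1 h (7.98% and 8.67% of all genes), 3 higher and 4 lower at 4 h (5.07% and 7.35%), and 0 differed between the stages (2.58%). Their median log2 fold change was 1.01 at 1 h, with 41 of 56 above 0, and 0.96 at 4 h, with 42 of 56 above 0, where all genes had medians of -0.01 and 0.03. DESeq2 called 4 of 56 at 1 h (4.53% of all genes) and 2 of 56 at 4 h (3.94%). Some of the 56, such as Kcnd2 and Kcnk10, passed the filter on low counts through the libraries where they were high. These 2 are also among the 9 counted higher at 1 h, so neither the medians nor the counts of higher and lower genes support a direction. Fits of only the 2 groups compared gave 0.64 at 1 h over 46 genes and 0.37 at 4 h over 38.

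Several of the further channel genes were highest in the 3 libraries with high nerve scores. Kcnq3, a subunit of the neuronal M-channel, was at 2.52, 0 and 3.03 CPM in normal rats, at 84.0, 10.7 and 83.3 CPM at 1 h and at 0, 0.08 and 117.0 CPM at 4 h. The 3 libraries high in nerve score held nearly all of its counts. Its log2 fold change at 1 h was 4.99 (SE 2.45, adjusted p = 0.322), and 0.34 (SE 0.77) with the nerve score as a covariate. Without those 3 libraries, which left 1 library at 1 h, it was 2.53. At 4 h it was 4.39 (SE 2.39), and without the 3 libraries the fitted value was -5.20 (SE 2.14), which depends on the prior count because the libraries left at 4 h held 0 and 1 counts. Kcnc4 (Kv3.4), Kcnd2 (Kv4.2), Kcnab2 (a beta subunit), Kcnmb4 (the beta4 subunit of the large-conductance channel), Kcnk4 (TRAAK) and Kcnk10 (TREK-2) also had their highest values in those 3 libraries. Their log2 fold changes at 1 h ran from 3.15 for Kcnab2 to 5.19 for Kcnd2, with adjusted p from 0.270 to 0.370 in edgeR's quasi-likelihood test. Kcnq3 and Kcnab2, named for their mean CPM, also missed an unadjusted p of 0.05 by edgeR (0.0745 and 0.125 at 1 h). Without the 3 libraries the 1 h values, which rest on 1 library, were 1.36 for Kcnc4, 2.73 for Kcnd2, 0.90 for Kcnab2 and 1.17 for Kcnmb4. At 4 h those of the same 4 genes ran from -3.64 to -0.35. Kcnk4 and Kcnk10 did not pass the filter on low counts in that fit.

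In the fit that included the nerve score, the median over the other channel genes at 1 h was 0.17, and 1 gene was higher and 4 were lower by unadjusted p. Over all genes that fit had a median of -0.03, with 1558 of 15482 under 0.05. Without replicate 3 at 4 h the median of the other channel genes at 4 h was -0.93, with 15 of 60 tested above 0, 3 higher and 11 lower. All genes then had a median of -0.10, with 1855 of 15945 under 0.05. Without the 3 libraries high in nerve score the other channel genes had a median of 0.39 at 1 h, with 32 of 50 above 0. That value rests on the 1 library left at 1 h. At 4 h their median was -0.78, with 15 of 50 above 0. The medians of all genes were -0.06 and -0.08. The sign of the other channel genes at 4 h thus turned on 1 library. The part of nerve RNA in these results was not tested.

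**Figure D5:**
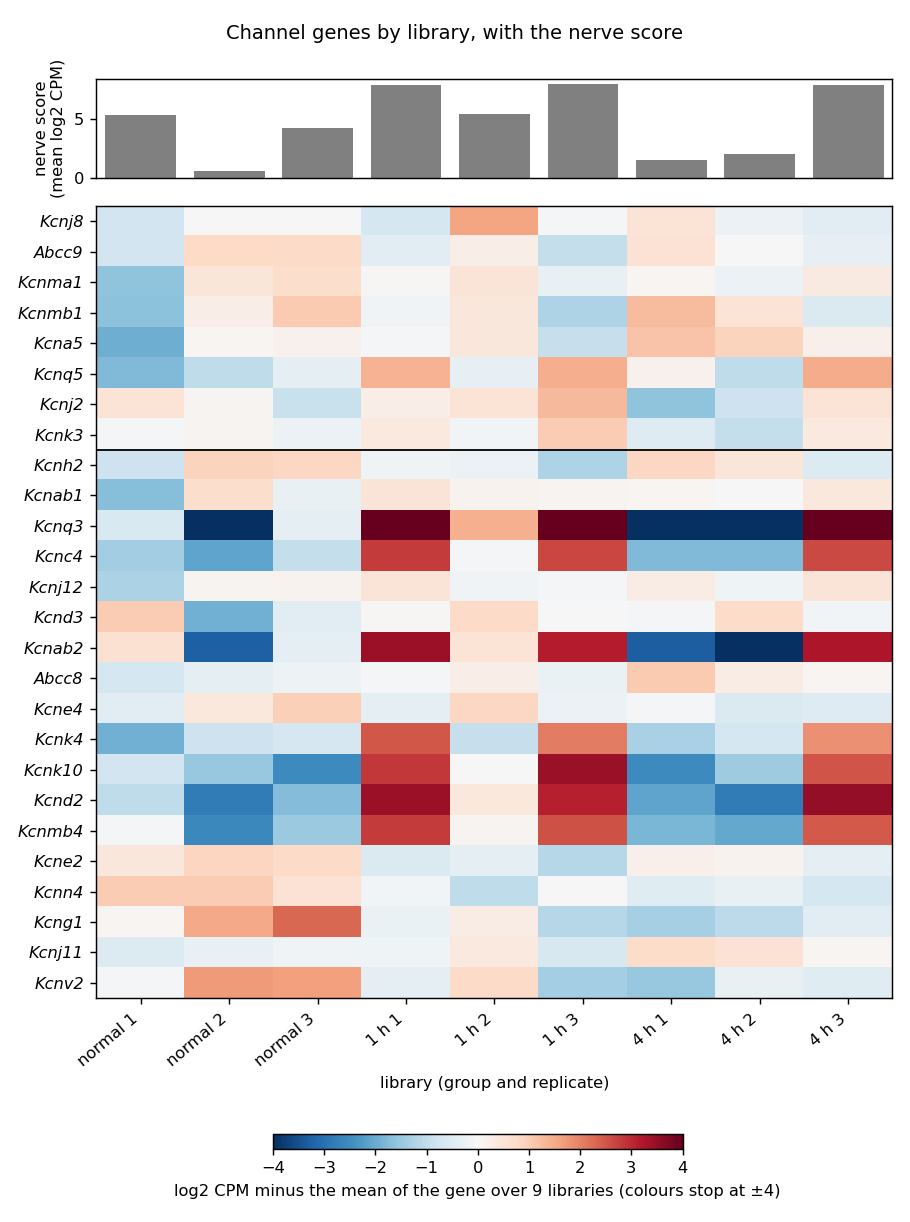
Log2 CPM of the 8 members (above the line) and 18 other potassium channel genes in 9 libraries, each minus the mean of the gene over the libraries (colours stop at 4 in either direction), with the nerve score of each library as bars. Kcnq3, Kcnc4, Kcnab2, Kcnk10, Kcnd2 and Kcnmb4 are high in replicates 1 and 3 at 1 h and replicate 3 at 4 h, where the score is 7.82 to 7.95, and Kcnn4 is highest in the 3 normal libraries.

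Among the other channel genes with lower values, Kcnn4 was called by DESeq2 at both times. Kcnn4, the intermediate-conductance calcium-activated channel found in endothelium and blood cells, was at 6.77, 6.71 and 5.02 CPM in normal rats, at 3.01, 1.54 and 3.32 CPM at 1 h and at 2.32, 2.65 and 1.98 CPM at 4 h. All 6 ischemic libraries were below all 3 normal ones. Groups did not overlap, in either direction, for 26.3% of all genes at 1 h and 18.7% at 4 h. Its log2 fold change was -1.23 (SE 0.36, adjusted p = 0.228) at 1 h and -1.41 (SE 0.36, adjusted p = 0.178) at 4 h by edgeR, and -1.21 (adjusted p = 0.0373) and -1.40 (adjusted p = 0.0132) by DESeq2. In each of the 9 fits that left out 1 library its unadjusted p was under 0.05 at both times. Kcnn4 was named for its unadjusted p, so these fits of the same values are no separate support. The 12 endothelial markers had a median of -0.39 at 1 h and -0.57 at 4 h, and 0 were called. By unadjusted p 2 of them were lower and 0 higher each time, where 8.67% and 7.35% of all genes were lower. Their summed level was 1134 to 2089 CPM in normal rats, 986 to 1601 CPM at 1 h and 974 to 1291 CPM at 4 h, and none was at 0. The 4 lymphocyte markers tested had a median of -0.36 at 1 h and -2.15 at 4 h. Lymphocyte markers summed to 8.76 to 89.9 CPM in normal rats and 5.54 to 12.7 CPM at 4 h. Medians were -0.15 and -0.69 for 9 macrophage markers, and -0.01 and 0.58 for 5 red cell markers. The part of these cell types in Kcnn4 was not tested.

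Kcne2, a small modifier subunit, was at 5.65, 7.44 and 7.02 CPM in normal rats, at 2.68, 3.14 and 1.78 CPM at 1 h and at 4.71, 4.48 and 3.04 CPM at 4 h. It did not overlap with normal at either time, which held in either direction for 26.3% of all genes at 1 h and 18.7% at 4 h. Kcne2 had a log2 difference from normal of -1.40 (SE 0.33, adjusted p = 0.189) at 1 h and -0.72 (SE 0.32, adjusted p = 0.412) at 4 h by edgeR, and DESeq2 called it at 1 h (-1.39, adjusted p = 0.00629). Kcng1 and Kcnv2, silent subunits that modify Kv2 channels, had log2 fold changes at 4 h of -2.75 (SE 0.75, adjusted p = 0.1996) and -2.02 (SE 0.68, adjusted p = 0.281). Kcng1 was at most 1.07 CPM in the 6 ischemic libraries, and DESeq2 called it at 4 h (-2.77, adjusted p = 0.0351).

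The second kind of ATP-sensitive channel, built from SUR1 (Abcc8) and Kir6.2 (Kcnj11), is best known from the pancreatic beta cell. Abcc8 was at 11.5, 14.2 and 16.2 CPM in normal rats, at 18.0, 22.6 and 15.5 CPM at 1 h and at 38.9, 23.3 and 19.7 CPM at 4 h. All 4 h libraries were above the normal ones (7.93% of all genes were higher in this way), with replicate 1 highest. At 4 h the log2 fold change of Abcc8 was 0.97 (SE 0.30, adjusted p = 0.240), and it was 0.60 without replicate 1 at 4 h. For Kcnj11 it was 0.82 (SE 0.33, adjusted p = 0.360) at 4 h, and 0.24 (SE 0.33, adjusted p = 0.711) at 1 h. Neither gene was called, whereas Kcnj8 and Abcc9, the vascular pair, had values of 0.24 and -0.29 at 4 h. The difference between the pairs was not tested.

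The remaining genes named here are those with the most counts. Kcnh2 (the ERG channel) and Kcne4 (a modifier subunit) had log2 fold changes of -0.95 (SE 0.53) and -0.24 (SE 0.44) at 1 h and -0.12 (SE 0.52) and -0.78 (SE 0.44) at 4 h. Kcnab1 (a beta subunit of Kv1 channels), Kcnj12 (Kir2.2) and Kcnd3 (Kv4.3) had values of 0.40 (SE 0.50), 0.34 (SE 0.39) and 0.31 (SE 0.64) at 1 h and 0.30 (SE 0.50), 0.44 (SE 0.39) and 0.23 (SE 0.64) at 4 h. In all 5 genes the groups overlapped at both times. Adjusted p values of these 5 genes were 0.351 or higher in edgeR's quasi-likelihood test.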

How the data were processed

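RNA of SMAs from 9 rats (3 per group per the series description) was profiled on a HiSeq X instrument. The authors deposited raw counts per gene symbol for all libraries in 1 table, and no other unit was used. The submitters' processing notes name HISAT2. The counting program, strand setting, genome build and annotation are not given in the sources used here, and the study's methods describe microarrays, so the counts were taken as sequencing counts from their values. Reads shared by overlapping or antisense genes could not be told apart.

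Counts were analysed in R 4.3.3 with edgeR 4.0.16 (filterByExpr, TMM scaling, glmQLFit and glmQLFTest over all 9 libraries with group as the only term, limma 3.58.1), with Benjamini-Hochberg adjustment over 15482 genes and calls where the adjusted p was below 0.05 and the fold change above 1.5. Log2 CPM used a prior count of 2, and ratios to Myh11 used a pseudocount of 0.5 with an exact permutation test over 20 divisions. SEs were derived from the size of each change and its F statistic. Common biological variation was 51.6%. Depth of 13114273 to 15504240 counts leaves sparse genes imprecise. DESeq2 1.42.0, other scalings, covariates and left-out libraries served as alternatives, and the scripts were tested on simulated data. The labels do not give a batch. By the series description each group held 3 rats, and the SMA was taken at death, while the study also speaks of 3 individuals behind its 9 chips, so p-values measure the spread between these samples.

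The members and lists were chosen with earlier results of these data known. Further channels are named if called, if they had an unadjusted p under 0.05 and at least 1 CPM (up to 6 per comparison and direction), or if they were among the 10 with the highest mean CPM, and 2 closest genes are named per member. Some genes that meet this rule are not reported here. Marker lists covered smooth muscle, nerve, endothelium, fat, lymphocytes, macrophages and red cells, which are given beside results, and further sources. All 8 members matched RefSeq by symbol.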

Additional observations from a re-analysis of the deposited data

How the results depend on the processing

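Every setting left 0 of 8 members called, and edgeR called 0 of the other potassium channel genes under each scaling, filter, covariate and left-out library, while DESeq2 called 4 at 1 h and 2 at 4 h. It also called 702 and 610 genes in all, against 9 and 14 by edgeR. Scaling by library size alone moved the median of all genes to -0.15 at 4 h and -0.24 between 4 h and 1 h, and scaling to the summed smooth muscle markers moved it to -0.71 and -0.86. Abcc9, Kcna5 and Kcnq5 against normal kept their signs in every fit with all 9 libraries. Every fitted difference of a member whose sign turned was within 1.44 SE of 0, and the cause was not tested. At 1 h, Kcnma1 became 0.049 by library size alone, 0.15 with the nerve score, 0.31 with the smooth muscle score and 0.57 scaled to smooth muscle markers. Kcnmb1 became 0.43, 0.061 and 0.043 in the last 3 of these settings, and Kcnj2 became -0.017 with the nerve score. At 4 h, Kcnma1 became 0.0012 with the nerve score, Kcnj8 became -0.079 and Kcnmb1 -0.066 with the smooth muscle score, and scaled to smooth muscle markers they were -0.38 and -0.030. Between 4 h and 1 h, Abcc9 and Kcnmb1 became -0.099 and -0.15 with the nerve score, -0.050 and -0.13 with the smooth muscle score and -0.31 and -0.074 scaled to smooth muscle markers, and Kcnq5 became 0.13 with the nerve score. Kcnmb1 relative to the smooth muscle markers without Myh11 was 0.015 between 4 h and 1 h.

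Further settings were chosen after seeing the data. Without the 3 libraries highest in nerve score, which left 1 library at 1 h, Kcnma1, Kcnmb1 and Kcnk3 were 0.35, 0.19 and -0.015 at 1 h. Kcnq5 was 0.038 between 4 h and 1 h in that fit. With both scores as covariates, Kcnj8 and Kcnmb1 were -0.023 and -0.12 at 4 h, and Abcc9, Kcnmb1 and Kcnq5 were -0.027, -0.019 and 0.070 between 4 h and 1 h.

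Fits that left out 1 library gave, at 1 h, -0.14 to 1.20 for Kcnj8, -0.46 to 0.35 for Kcnma1, -0.86 to 0.24 for Kcnmb1 and -0.20 to 0.53 for Kcna5. At 4 h they gave -0.14 to 0.42 for Kcnj8, -0.50 to 0.31 for Kcnma1, -0.21 to 0.99 for Kcnmb1 and -0.66 to 0.082 for Kcnk3, and between 4 h and 1 h -0.97 to 0.38 for Kcnj8 and -0.20 to 0.20 for Kcnma1. Relative to Myh11 the ranges at 4 h were -0.45 to 0.17 for Kcnj8, -0.10 to 0.36 for Kcnmb1, -0.78 to 0.05 for Kcnma1 and -0.21 to 1.58 for Kcnq5, and between 4 h and 1 h -0.055 to 0.18 for Kcna5. The members whose ratio did not overlap numbered 1 to 4 at 1 h, 2 to 5 at 4 h and 0 to 5 between the stages, where 2 against 3 libraries separate more easily.

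Replicate numbers recur in every group, but no label ties them to an animal or day. The study speaks of 3 individuals, yet tissue was taken at death, so a rat could enter only 1 group. Same-numbered libraries had correlations of their deviations from group means from -0.65 to 0.66, so the numbers were not taken to pair samples. With the replicate block, 0 members and 7 genes in all were called at each stage, Kcnma1 was 0.14 at 1 h and 0.10 at 4 h, and the other members against normal kept their signs.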
